A study of Mus musculus with 10 samples.

Results

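Mutant 3 of ASXL2 was compared with the empty vector in cells from mouse bone marrow, with 2 libraries of each construct among the 10 libraries of the study. The construct and batch of every library were taken from the name under which its data were deposited, 1 library per construct and batch, and replicate 1 or 2 below means batch 1 or 2 of that name. Names and labels disagree for 4 of the 6 mutant libraries in the mutant number, and for 2 of these also in the batch. Mutant 3 replicate 1 is labelled mutant 2, while mutant 3 replicate 2 and all empty vector and full-length libraries carry the same construct and batch in both. By label, mutant 3 would be the library named mutant 2 replicate 2 together with mutant 3 replicate 2. All groups were lineage-negative, Kit-positive mouse bone marrow cells that carried a GFP vector, sorted for GFP and expanded in IMDM with fetal bovine serum, IL3, IL6 and SCF. The groups were the empty vector, full-length ASXL2 and mutants 1, 2 and 3, each with 2 libraries. The labels give neither the change that each mutant carries, nor the strain or age of the mice, nor whether the libraries are separate cultures. The spread behind each p-value is the one between libraries and may be technical.

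ASXL2 is a scaffold protein of chromatin. It binds the deubiquitinase BAP1, which takes ubiquitin off histone H2A and so opposes Polycomb repressive complexes, and it also binds nuclear receptors. Mutations of ASXL2 occur in a subtype of acute myeloid leukemia. Mouse progenitors kept in IL3 and SCF can turn into mast cells and basophils.

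Total estimated counts were 52422686 and 71822767 in the empty vector libraries and 54619085 and 78884793 in the mutant 3 libraries, and all 10 lay between 52422686 and 79320702. The first principal component of log2 CPM (counts scaled to a common library size) held 41.2% of the variance and split the libraries by the batch in their names. The second held 16.0% and placed the empty vector at -50.4 and -44.2 and mutant 3 at 19.9 and 21.9. Mutant 1 stood at 7.02 and 14.35, mutant 2 at 5.91 and 20.99 and full-length ASXL2 at 1.28 and 3.29. The distance from the empty vector was thus shared by all ASXL2 constructs. Libraries were also set against each other across batches, by how each gene deviated from the mean of the other 3 ASXL2 constructs in its batch, over 10146 genes with at least 5 CPM. Mutant 3 replicate 1 correlated at 0.24 with mutant 3 replicate 2, at 0.11 with mutant 1 replicate 2, which shares its label, at 0.06 with mutant 2 replicate 2 and at -0.29 with full-length replicate 2. In these deviations each of the 4 constructs had its highest value with the library of its own name. In plain differences from the empty vector of the same batch this held for full-length ASXL2 and mutant 3 but not for the other two, since mutant 1 replicate 1 correlated at 0.665 with mutant 3 replicate 2 and 0.644 with mutant 1 replicate 2, and mutant 2 replicate 1 at 0.606 with mutant 3 replicate 2 and 0.555 with mutant 2 replicate 2. In these plain differences mutant 3 replicate 1 correlated at 0.478 with full-length replicate 2, and full-length replicate 1 at 0.618 with mutant 3 replicate 2. These correlations run over genes, which are not independent replicates, and the deviations within a batch share libraries. For each gene the deviations of a batch cancel out, so values between constructs are pushed below those of the plain differences.

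**Figure D1:**
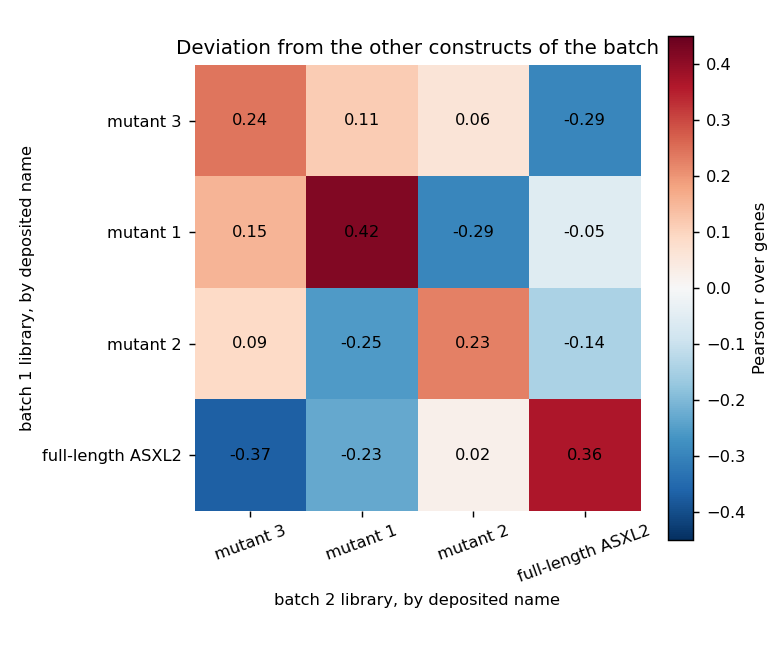
Pearson r, over 10146 genes, between each batch 1 library (rows) and each batch 2 library (columns) in their deviation from the mean of the other 3 ASXL2 constructs of the same batch. The diagonal pairs libraries with the same construct in the deposited name, and mutant 3 stands at 0.24 with itself and at -0.29 and -0.37 with full-length ASXL2. The deviations of a batch cancel out for each gene, so negative values between constructs are partly built in.

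Asxl2 (mm10 chromosome 12, 3426857 to 3506852) checks that the construct was present. It stood at 107 and 111 CPM with the empty vector and at 1132 and 790.2 CPM with mutant 3 (log2 fold change 3.09 with SE 0.26, adjusted p = 0.00210). Both mutant 3 libraries lay far above both empty vector libraries, and full-length ASXL2 stood at 1384 and 992 CPM. The summed counts do not separate the vector's transcript from the cell's own. For the empty vector against mutant 3, the annotated 8887-base transcript stood at 10.2 and 8.31 against 10.8 and 9.20 TPM. TPM is a share of all transcripts, scaled by length. The 4462-base one stood at 6.37 and 7.63 against 204 and 129 TPM, and the 1483-base one at 9.55 and 8.72 against 385 and 233. The 5561-base one stood at 3.25 and 3.0 against 1.28 and 1.55, and the rest stayed under 1 TPM. Which reads came from the vector was not tested. The related scaffold gene Asxl1 stood at 107 and 103 CPM with the empty vector and at 91.9 and 97.1 CPM with mutant 3 and did not pass (adjusted p = 0.155). Bap1, the deubiquitinase gene, did not pass either, at 77.1 and 79.03 against 75.7 and 81.4 CPM (log2 fold change 0.01, SE 0.06, adjusted p = 0.961). Asxl3 had too few counts to be tested.

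Mutant 3 and the empty vector differed in many genes, more of them higher than lower. With edgeR's quasi-likelihood test, and calls at a Benjamini-Hochberg adjusted p under 0.05, 953 of 17810 genes tested were higher with mutant 3 (5.35% of those tested) and 502 were lower (2.82%). The higher genes also moved further. Their median log2 fold change was 0.89 and 438 of them exceeded 1, while the lower genes had a median of -0.41 and 93 were below -1. All 953 higher genes and 500 of the 502 lower genes had the sign of their call within both batches, where 62.5% of all genes tested had 1 sign in both. The calls were made from these same libraries, so this only describes them. The same holds below wherever libraries of a called gene are said to lie apart or not to overlap. The counts of higher and lower genes were 368 and 131 without mutant 3 replicate 1, 411 and 95 without replicate 2, 496 and 207 without empty vector replicate 1 and 893 and 951 without empty vector replicate 2. Without mutant 1 replicate 1 or 2 the lower genes numbered 277 or 269. Without the replicate block, so with the batch left out of the fit, 48 and 5 genes passed, and with construct and batch taken from the labels 120 and 12 passed.

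**Figure D2:**
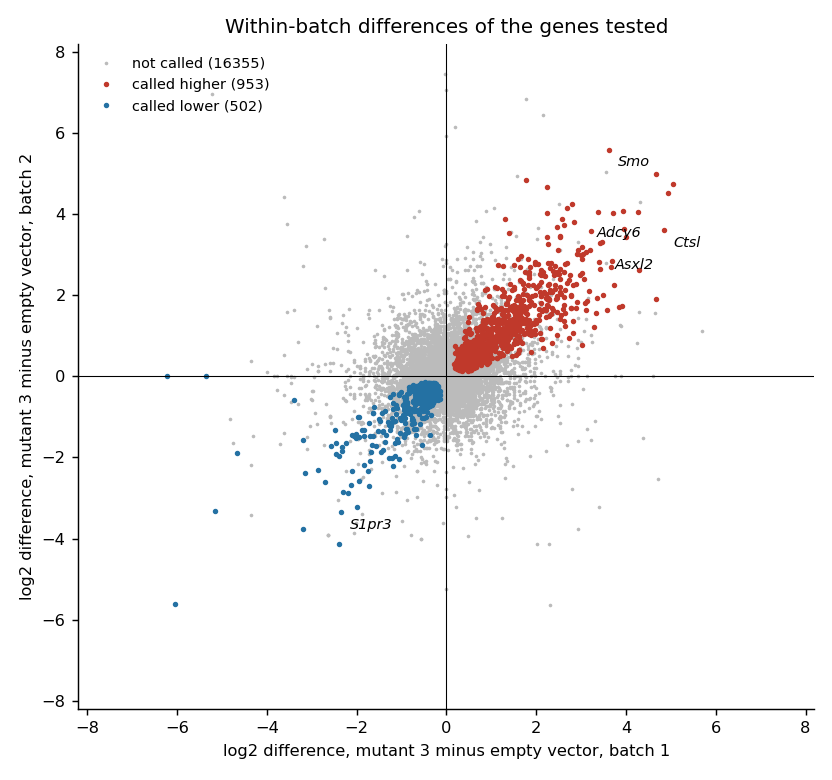
Each point is 1 gene, with the log2 CPM difference between the mutant 3 and the empty vector library of batch 1 on the horizontal axis and of batch 2 on the vertical axis. Red points are the 953 genes called higher and blue points the 502 called lower, nearly all in the quadrants where both batches have the same sign.

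The genes with the largest rises belong to varied families. Cathepsin L (Ctsl, mm10 chromosome 13, 64359337 to 64370890), a lysosomal protease, stood at 0.791 and 0.934 CPM with the empty vector and 23.6 and 11.7 CPM with mutant 3 (log2 fold change 4.22 with SE 0.28, adjusted p = 0.000244). Bmp1, a protease that processes procollagens (mm10 chromosome 14, 70474558 to 70520234), stood at 0.508 and 0.511 against 8.28 and 6.70 CPM (log2 fold change 3.85 with SE 0.24, adjusted p = 8.74e-05). The adenylyl cyclase Adcy6, which makes cyclic AMP (mm10 chromosome 15, 98589973 to 98610076), stood at 3.24 and 3.31 against 28.1 and 28.1 CPM (log2 fold change 3.10 with SE 0.12, adjusted p = 8.21e-06). In all 3 genes the libraries of a construct lay close together compared with the gap between constructs, though Ctsl in mutant 3 was higher in batch 1 than in batch 2. The Hedgehog signal transducer Smo stood at 0.358 and 0.0876 against 4.73 and 5.63 CPM and had the largest fitted rise by the rule used here (log2 fold change 4.59, SE 0.67). Its empty vector level was so low that the fold is imprecise, and it did not pass without either mutant 3 library (highest adjusted p = 0.0610).

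Other large rises included genes of the cytoskeleton, of adhesion and of signalling. The actin crosslinker Actn1 stood at 2.92 and 1.42 against 18.0 and 19.3 CPM (log2 fold change 3.17 with SE 0.33, adjusted p = 0.00285). The adhesion adaptor Bcar1 stood at 0.678 and 0.496 against 7.76 and 5.24 CPM, a log2 fold change of 3.46. The guanine nucleotide exchange factor gene Rasgef1a stood at 1.58 and 0.992 against 12.1 and 8.20 CPM, a log2 fold change of 2.99. In each both mutant 3 libraries lay above both empty vector libraries. The zinc finger gene Zfp516 rose by 4.29, the ubiquitin-conjugating enzyme gene Ube2e2 by 3.47, Trp53i11 by 3.42, Slain1, whose product binds microtubule ends, by 2.82 and Sel1l3 by 2.86. Anks6 (mm10 chromosome 4, 47015669 to 47057427) rose by 3.23, from 0.546 and 0.584 to 5.24 and 5.29 CPM. Its neighbour Galnt12, an enzyme of O-glycosylation (mm10 chromosome 4, 47091909 to 47123070), rose from 2.81 and 2.45 to 13.3 and 10.1 CPM (log2 fold change 2.14 with SE 0.19, adjusted p = 0.000454). Of the genes in these sentences all passed with each library left out in turn except Sel1l3, which did not pass without mutant 3 replicate 1 (adjusted p = 0.0594).

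The genes with the largest falls also belong to varied families. The sphingosine 1-phosphate receptor S1pr3 (mm10 chromosome 13, 51408639 to 51422797) stood at 5.88 and 5.39 CPM with the empty vector and 1.13 and 0.499 CPM with mutant 3 (log2 fold change -2.86 with SE 0.28, adjusted p = 0.000630). The proton channel Otop1 stood at 15.8 and 12.2 against 3.96 and 1.27 CPM (log2 fold change -2.60 with SE 0.33, adjusted p = 0.00542). Serpinb2, an inhibitor of plasminogen activators, stood at 26.1 and 19.7 against 4.70 and 5.24 CPM (log2 fold change -2.19 with SE 0.28, adjusted p = 0.00754). In these 3 genes both mutant 3 libraries lay below both empty vector libraries. Mcpt8, a basophil protease, stood at 8.15 and 15.9 against 0.861 and 5.34 CPM (log2 fold change -2.30), with each batch 2 library above its batch 1 partner. The chemokine receptor Ccr2 stood at 14.7 and 19.9 against 3.78 and 7.04 CPM (log2 fold change -1.73 with SE 0.17, adjusted p = 0.000648). Its relative Ccr1 stood at 88.1 and 143 against 35.8 and 65.4 CPM (log2 fold change -1.22 with SE 0.11, adjusted p = 0.000718), again with higher levels in batch 2. The glycoprotein gene Cd24a fell by 2.28 on the log2 scale, Cpne7 by 2.25, the T cell adaptor gene Skap1 by 2.22 and the catenin gene Ctnna2 by 2.02. The T cell receptor segments Trav6-3 and Trdv4 fell by 2.10 and 2.06, but reads of these families can be shared among near-identical segments and the values are uncertain. S1pr3, Otop1, Ccr1, Ccr2 and Trdv4 passed with each library left out in turn. Without mutant 3 replicate 1 Mcpt8 did not pass, without mutant 3 replicate 2 Cpne7 did not, without either of them or empty vector replicate 1 Serpinb2, Skap1 and Trav6-3 did not, and Cd24a and Ctnna2 did not without any 1 of the 4 libraries compared.

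**Figure D3:**
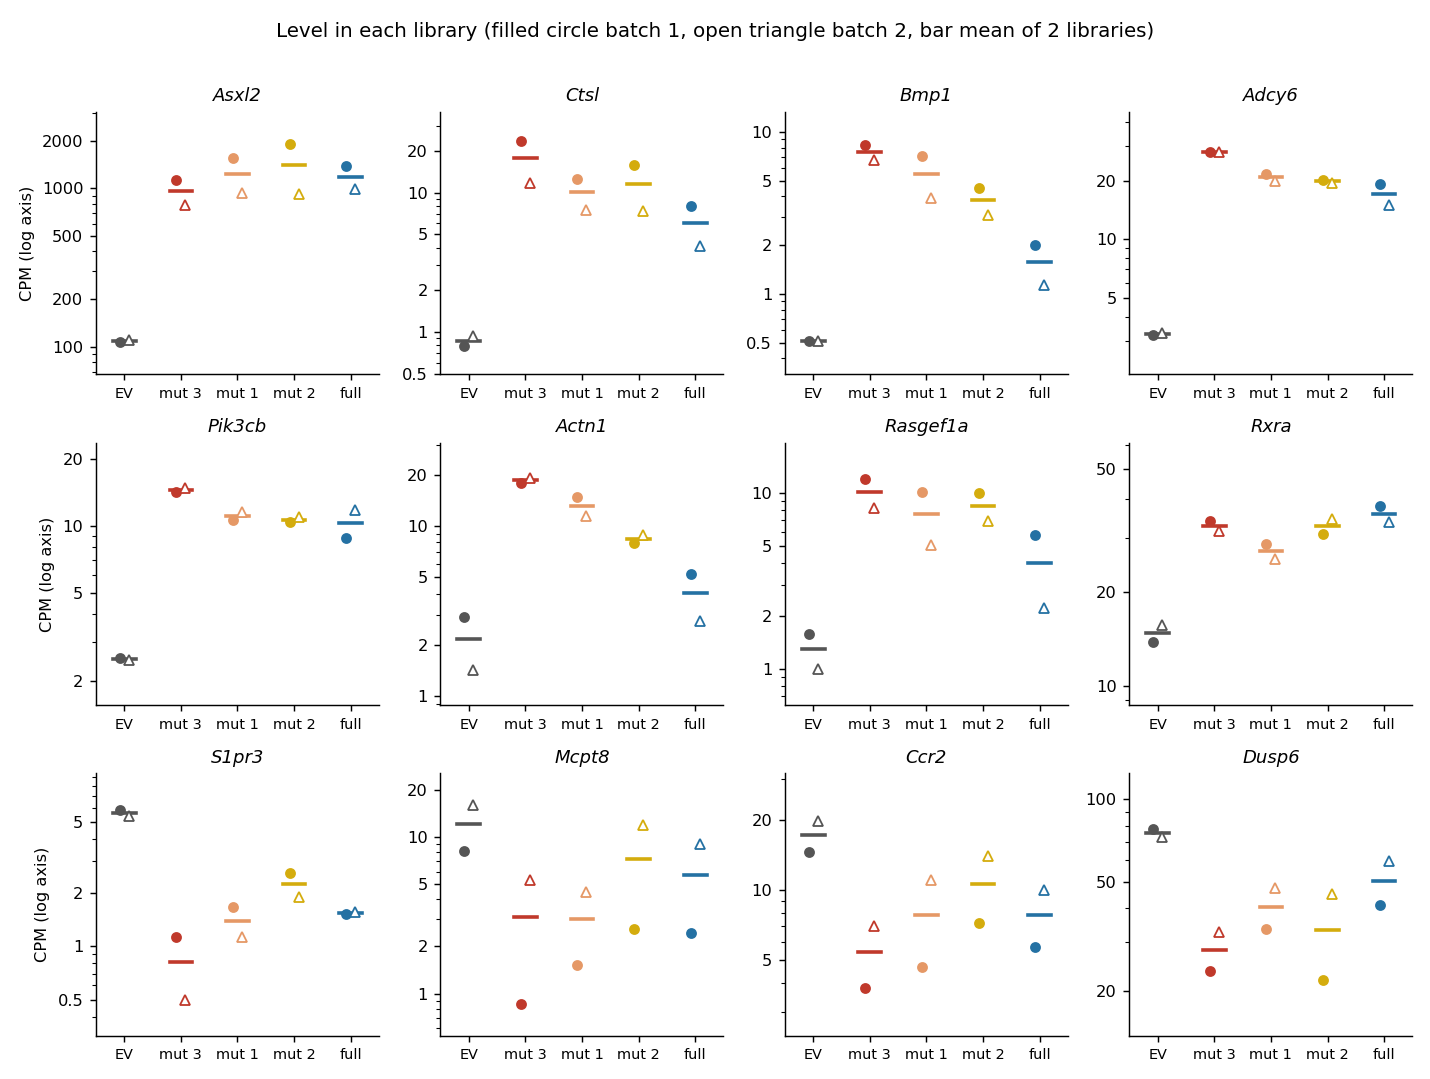
CPM (log axis) of 12 genes in each library, with the 5 constructs side by side, filled circles for batch 1, open triangles for batch 2 and a bar at the mean of the 2 libraries. In Asxl2, Ctsl, Bmp1, Adcy6, Pik3cb, Actn1, Rasgef1a and Rxra both mutant 3 libraries lie above both empty vector libraries, and in S1pr3, Mcpt8, Ccr2 and Dusp6 both lie below.

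Some genes of glycolysis and the hypoxia response rose. Of the 34 tested genes of this list, 7 rose, none fell and 27 did not pass, against the background of 5.35% of all genes higher, and 32 had a positive log2 fold change. The list's median was 0.60 (0.61 within batch 1 and 0.58 within batch 2), and the median of all genes tested was -0.01. The neuronal enolase Eno2 stood at 1.86 and 1.42 CPM with the empty vector and 13.4 and 6.84 CPM with mutant 3 (log2 fold change 2.56 with SE 0.16, adjusted p = 8.81e-05). The phosphofructokinase Pfkp stood at 288 and 241 against 457 and 427 CPM (log2 fold change 0.75 with SE 0.12, adjusted p = 0.00880). Ankrd37, a gene induced by hypoxia-inducible factor, stood at 2.30 and 0.978 against 7.19 and 5.24 CPM (log2 fold change 2.02 with SE 0.40, adjusted p = 0.0274). In all 3 genes both mutant 3 libraries were above both empty vector libraries. The other risers were the stress gene Ndrg1 (1.17), the carbonic anhydrase Car9 (0.61), the glucose transporter Slc2a1 (0.59) and the mitophagy receptor Bnip3l (0.37), all as log2 fold changes. The number of risers was 1 without empty vector replicate 1 or mutant 3 replicate 1, 2 without empty vector replicate 2 or mutant 3 replicate 2, 3 and 4 without mutant 1 replicate 1 and 2, and 11 and 12 without full-length replicate 1 and 2. Eno2 passed in each of these fits, Pfkp in none that left out 1 of the 4 libraries compared, and Ankrd37 in none of those or without mutant 1 replicate 1 or 2. DESeq2 called 15 of the list, the fit of only the libraries compared called 18, and the fit without the replicate block called 0.

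Hypoxia-inducible factor binds DNA at a core of the letters ACGTG, which also lies inside the longer motif CACGTG. The 250 bases before the start were read from RefSeq (GRCm38.p6) for 3 of the risers, because their promoters hold that core. Both strands were searched, matches are in capitals, and a match on the other strand reads CACGT. Ankrd37 lies on chr8:45999851-46000100 (minus strand), Car9 on chr4:43506776-43507025 (plus strand) and Slc2a1 on chr4:119108495-119108744 (plus strand).
Ankrd37: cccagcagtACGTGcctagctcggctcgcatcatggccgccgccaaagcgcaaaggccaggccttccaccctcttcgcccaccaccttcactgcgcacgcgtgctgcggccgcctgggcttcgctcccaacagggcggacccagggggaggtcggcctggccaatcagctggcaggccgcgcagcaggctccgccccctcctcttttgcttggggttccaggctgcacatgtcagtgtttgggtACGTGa
Car9: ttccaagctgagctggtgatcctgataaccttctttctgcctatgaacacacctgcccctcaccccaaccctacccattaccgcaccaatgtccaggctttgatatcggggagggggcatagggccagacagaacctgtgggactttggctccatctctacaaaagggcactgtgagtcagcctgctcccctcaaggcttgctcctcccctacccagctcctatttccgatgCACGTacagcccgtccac
Slc2a1: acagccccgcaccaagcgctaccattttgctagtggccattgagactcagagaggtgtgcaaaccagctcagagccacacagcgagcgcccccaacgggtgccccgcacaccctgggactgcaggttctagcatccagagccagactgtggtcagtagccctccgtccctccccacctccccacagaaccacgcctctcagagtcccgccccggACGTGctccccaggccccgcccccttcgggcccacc
Ankrd37 has 2 matches and Car9 and Slc2a1 have 1 each. Of the 30 list genes matched to a RefSeq promoter 18 (60%) held the core, and of 32851 promoters of all genes 5444 (16.6%) did. The lists were put together from known genes of the response, so this describes the list and not the change with mutant 3, and a match is not a binding site.

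**Figure D4:**
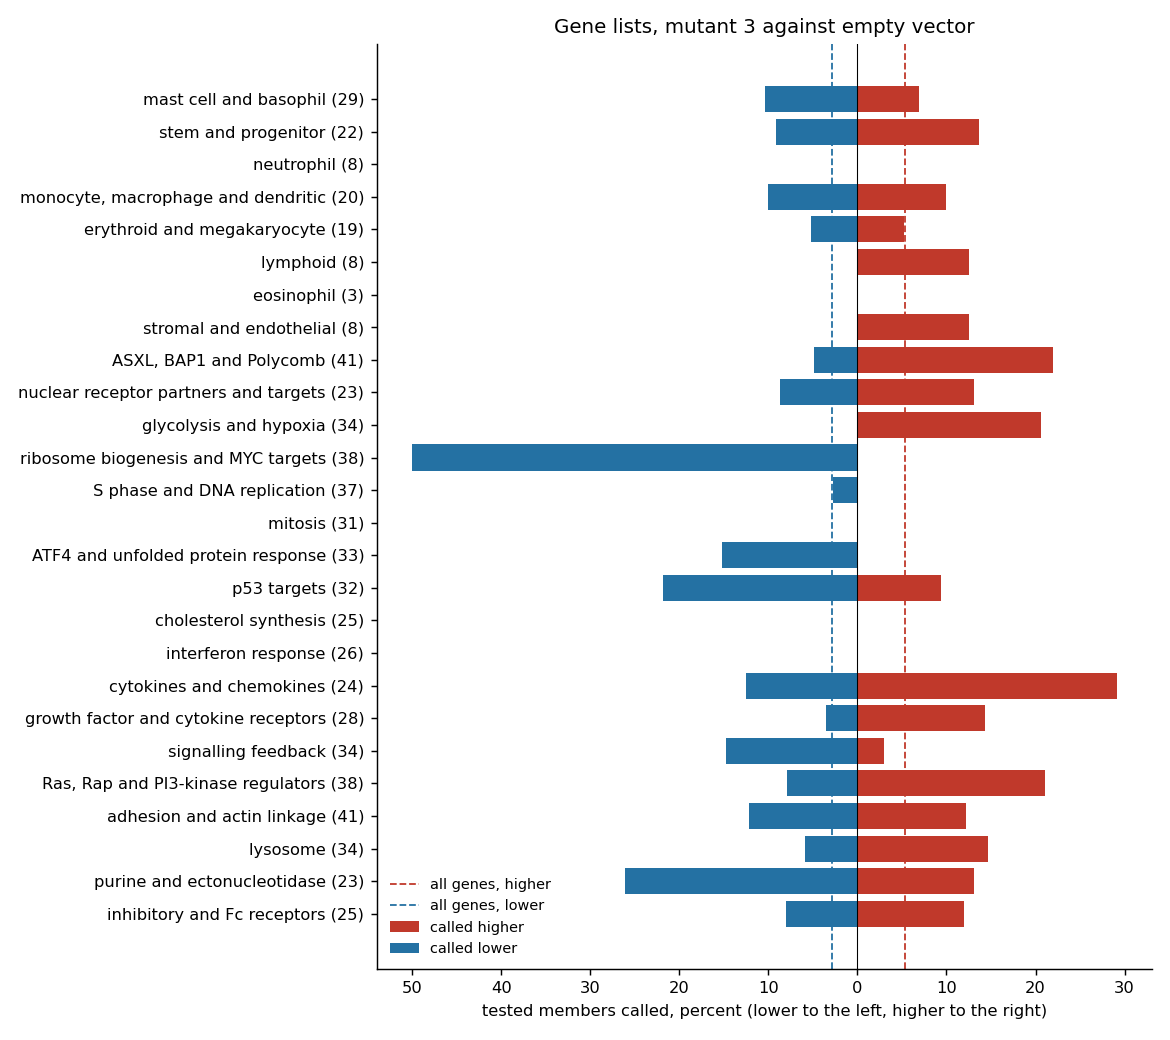
Percent of the tested members of each gene list that were called higher (red, to the right) or lower (blue, to the left) with mutant 3 against the empty vector, with the number tested in parentheses. The dashed lines mark the share of all genes tested, 5.35% higher and 2.82% lower, and ribosome biogenesis has the longest bar, at 50% lower.

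Many genes of ribosome production and other MYC targets fell by small amounts. Of 38 tested, 19 fell, none rose and 19 did not pass, where 2.82% of all genes tested were lower, and all 38 had a negative log2 fold change with a median of -0.30. Utp20, a factor for processing of the small ribosomal subunit, stood at 38.9 and 47.2 CPM with the empty vector and 25.4 and 34.4 CPM with mutant 3 (log2 fold change -0.54 with SE 0.07, adjusted p = 0.00253). The spermidine synthase Srm stood at 140.4 and 164 against 101 and 123 CPM (log2 fold change -0.44 with SE 0.07, adjusted p = 0.00760). Cad, the enzyme that starts pyrimidine synthesis, stood at 126 and 125 against 67.6 and 86.2 CPM (log2 fold change -0.73 with SE 0.12, adjusted p = 0.00999). Within each batch the mutant 3 library of these 3 genes was below the empty vector library. The nucleolar genes Ncl, Npm1, Fbl and Nolc1 fell too, by 0.30, 0.26, 0.36 and 0.32 on the log2 scale. Falls were small, with list medians of -0.43 within batch 1 and -0.21 within batch 2. The number that fell was 1 without either mutant 3 library, 4 without empty vector replicate 1 and 30 without empty vector replicate 2, and Utp20 passed in all of these. Srm and Cad did not pass without either mutant 3 library. The fit of only the libraries compared called 9 of the list lower and DESeq2 24, and limma on log2(TPM + 1), the fit without the replicate block and the fit by the labels called 0.

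The cell cycle lists had few calls, and the median of the mitosis list changed sign between batches. Over all genes tested, 5.35% were higher and 2.82% lower. Of 37 genes of S phase and DNA replication 1 fell, the origin recognition gene Orc1 (7.89 and 8.03 against 4.29 and 5.92 CPM, log2 fold change -0.66, adjusted p = 0.0312), and of 31 genes of mitosis none passed. The S phase median was -0.39 within batch 1 and -0.02 within batch 2, and the mitosis median was -0.48 within batch 1 and 0.15 within batch 2. Without empty vector replicate 2, 26 S phase and 29 mitosis genes passed as lower, and without empty vector replicate 1 none did. Orc1 also did not pass without either mutant 1 or either mutant 3 library. The summed mitosis TPM (a share of all transcripts, scaled by length) was 1667 and 1442 with the empty vector and 1137 and 1580 with mutant 3.

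Some stress response genes fell, where 2.82% of all genes tested were lower and 5.35% higher. Of 33 tested genes of ATF4 and the unfolded protein response, 5 fell, none rose and 28 did not pass, with a median of -0.22. The transcription factor Xbp1 stood at 494 and 458 CPM with the empty vector and 363 and 339 CPM with mutant 3 (log2 fold change -0.44 with SE 0.08, adjusted p = 0.0131). Sesn2, a stress-induced brake on mTORC1, stood at 99.7 and 134 against 66.4 and 88.0 CPM (log2 fold change -0.60 with SE 0.09, adjusted p = 0.00548). The protein disulfide isomerase Pdia4 stood at 149 and 147 against 124 and 121 CPM (log2 fold change -0.27 with SE 0.06, adjusted p = 0.0225), and Herpud1 and Dnajb9 fell by 0.29 and 0.35 on the log2 scale. Both mutant 3 libraries of Xbp1, Sesn2 and Pdia4 lay below both empty vector libraries. Of 32 p53 targets, 7 fell, 3 rose and 22 did not pass. The death receptor Eda2r stood at 17.1 and 18.7 against 9.06 and 11.2 CPM (log2 fold change -0.82 with SE 0.13, adjusted p = 0.00552), and Sesn2, Ccng1, Tnfrsf10b, Zmat3, Aen and Xpc also fell. The antiproliferative gene Btg2 rose, from 5.88 to 15.8 CPM in batch 1 and from 1.98 to 4.30 CPM in batch 2 (log2 fold change 1.28 with SE 0.14, adjusted p = 0.00113), as did Pmaip1 and Rrm2b. Without mutant 3 replicate 1 and 2 the falls numbered 1 and 0 for ATF4 and 1 and 1 for p53, and without empty vector replicate 1 and 2 they numbered 2 and 13 for ATF4 and 3 and 8 for p53. Without either mutant 1 library or mutant 2 replicate 2 the ATF4 falls numbered 3, and the p53 risers numbered 1 without empty vector replicate 1, either mutant 1 or either mutant 3 library. Sesn2 and Xbp1 did not pass without either mutant 3 library, nor Pdia4 without those, empty vector replicate 1 or either mutant 1 library, nor Xbp1 without empty vector replicate 1, nor Eda2r without mutant 3 replicate 1, while Btg2 passed in every such fit.

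Polycomb genes were described because ASXL2 acts with BAP1 against the Polycomb mark. Of 41 tested genes of the ASXL, BAP1 and Polycomb list, 9 rose, Asxl2 among them, and 2 fell. The shares of all genes tested were 5.35% higher and 2.82% lower. The chromobox gene Cbx7 stood at 28.3 and 18.5 CPM with the empty vector and 56.3 and 29.2 CPM with mutant 3 (log2 fold change 0.82 with SE 0.10, adjusted p = 0.00255). Within each batch mutant 3 was higher, but Cbx7 was also higher in batch 1 than in batch 2. Cbx6 stood at 79.8 and 69.3 against 116 and 89.7 CPM (log2 fold change 0.45 with SE 0.06, adjusted p = 0.00311). Pcgf5, a subunit of a variant PRC1 complex, rose by 0.74, Rybp by 0.46, Cbx2 by 0.50, Kdm2b by 0.25 and Scmh1 by 0.23. The PRC1 gene Phc1 fell by 0.42 and the BAP1 partner Hcfc1 by 0.24 on the log2 scale. The median of the list was 0.02, close to that of all genes. The risers numbered 5 without empty vector replicate 1, either mutant 1 library or either mutant 3 library. The falls numbered 0 without empty vector replicate 1 or either mutant 3 library and 1 without either mutant 1 library, and Cbx7 and Cbx6 passed with each library left out.

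Of 23 nuclear receptor partners and targets, 3 rose and 2 fell, against 5.35% and 2.82% of all genes tested. The retinoid X receptor Rxra, the common partner of many nuclear receptors, stood at 13.8 and 15.7 against 34.0 and 31.6 CPM (log2 fold change 1.15 with SE 0.10, adjusted p = 0.000405). The coactivator Ncoa1 stood at 1.24 and 0.978 against 3.60 and 2.43 CPM (log2 fold change 1.43 with SE 0.17, adjusted p = 0.00146), and the retinoic acid receptor Rarg rose by 0.36. Both mutant 3 libraries of Rxra and Ncoa1 exceeded both empty vector libraries. Among PPAR targets, Cpt1a stood at 34.5 and 82.4 against 20.8 and 33.7 CPM (log2 fold change -1.02, adjusted p = 0.0290) and Angptl4 fell by 0.57. Over the whole list 18 members had a positive log2 fold change and 5 a negative one, with a median of 0.22. Rxra and Ncoa1 passed with each library left out. No member of the list fell without empty vector replicate 1 or either mutant 3 library, 1 fell without empty vector replicate 2 or either mutant 1 library, and 5 rose without empty vector replicate 2 or either full-length library.

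Growth factor and cytokine receptors changed in a few members, 4 of 28 higher and 1 lower, against 5.35% and 2.82% of all genes tested. The shared IL6-family receptor chain Il6st stood at 4.82 and 2.77 CPM with the empty vector and 15.9 and 10.3 CPM with mutant 3 (log2 fold change 1.80 with SE 0.11, adjusted p = 8.74e-05). The receptor Igf1r stood at 38.8 and 23.9 against 63.7 and 41.3 CPM (log2 fold change 0.76 with SE 0.08, adjusted p = 0.000667). The erythropoietin receptor Epor rose by 1.01 and the TGF-beta coreceptor Eng by 0.83, and Crlf2, the TSLP receptor chain, fell by 0.43 on the log2 scale. Il6st and Igf1r passed with each library left out, while the risers numbered 2 without empty vector replicate 1. With any 1 of the empty vector, mutant 1, mutant 3 or full-length libraries left out no member was called lower, so Crlf2 did not pass. Eng did not pass without empty vector replicate 1, either mutant 1 library or either mutant 3 library, and Epor did not without empty vector replicate 1 or mutant 3 replicate 1.

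In the list of Ras, Rap and PI3-kinase regulators, which also holds the adenylyl cyclases Adcy6 and Adcy3, 8 of 38 rose and 3 fell. Of all genes tested 5.35% were higher and 2.82% lower. The catalytic PI3-kinase subunit gene Pik3cb stood at 2.54 and 2.48 CPM with the empty vector and 14.2 and 14.8 CPM with mutant 3 (log2 fold change 2.53 with SE 0.13, adjusted p = 3.71e-05). The 2 libraries of each construct lay within 1 CPM of each other. Adcy6 and Rasgef1a, described above, are members too, and Pik3r5, Rasgrp2, Rasa4, Dab2ip and Adcy3 rose from levels under 3 CPM. The exchange factor Rasgrp1 stood at 32.4 and 35.1 against 20.1 and 22.1 CPM (log2 fold change -0.68, adjusted p = 0.00249), and the GTPase activator Rasa2 and the PI3-kinase subunit Pik3cg fell by 0.90 and 0.24 on the log2 scale. Leaving out either mutant 3 library or empty vector replicate 2 left 5 risers, and without mutant 3 replicate 1 or empty vector replicate 1 there was 1 fall. Of 34 genes of signalling feedback, 5 fell and 1 rose. The ERK phosphatase Dusp6 stood at 77.6 and 72.8 against 23.5 and 32.7 CPM (log2 fold change -1.46 with SE 0.24, adjusted p = 0.0223), and Dusp5, Rgs1 and Spred1 fell by 0.79, 0.44 and 0.29. Spry1, an inhibitor of receptor tyrosine kinase signalling, also fell but stood under 1 CPM in all 4 libraries, and its relative Spry2 rose by 0.55. Dusp6 did not pass without mutant 1 replicate 1 or either mutant 3 library. The falls numbered 2 and 0 without mutant 3 replicate 1 and 2, 1 and 8 without empty vector replicate 1 and 2, and 2 and 3 without mutant 1 replicate 1 and 2, and Spry2 passed in no fit that left out a library.

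Of 24 cytokines and chemokines tested, 7 rose and 3 fell, against 5.35% and 2.82% of all genes tested. The chemokine gene Ccl3 stood at 2.62 and 3.65 CPM with the empty vector and 7.44 and 12.4 CPM with mutant 3 (log2 fold change 1.65 with SE 0.21, adjusted p = 0.00235). The 4-1BB ligand Tnfsf9 stood at 8.04 and 5.79 against 13.4 and 10.3 CPM (log2 fold change 0.78 with SE 0.11, adjusted p = 0.00425). The OX40 ligand Tnfsf4 stood at 5.52 and 5.87 against 2.12 and 1.88 CPM (log2 fold change -1.51 with SE 0.24, adjusted p = 0.00586). Both ligands showed no overlap between the constructs, in opposite directions. Ccl9, Ccl2, Il13, Il1b and Tslp rose as well, and Ccl9 was uneven, at 4.14 and 10.8 against 11.9 and 50.2 CPM. Il6 fell from 68.7 and 69.9 to 56.4 and 54.1 CPM and Ccl17 fell at levels under 2 CPM. The risers numbered 2 and 4 without empty vector replicate 1 and 2, 4 and 3 without mutant 3 replicate 1 and 2 and 3 without either mutant 1 library, and the falls numbered 5 without either mutant 2 library and 1 and 0 without mutant 3 replicate 1 and 2. Ccl3 and Tnfsf9 passed with each library left out, and Tnfsf4 did not without mutant 3 replicate 2.

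In the handling of extracellular nucleotides, 6 of 23 genes fell and 3 rose, against 2.82% lower and 5.35% higher of all genes tested. The ectonucleotidase Entpd1 (CD39), which degrades ATP outside the cell, stood at 58.7 and 49.2 CPM with the empty vector and 16.4 and 10.8 CPM with mutant 3 (SE of the log2 fold change 0.32, adjusted p = 0.0213). The vesicular nucleotide transporter Slc17a9 stood at 25.8 and 22.9 against 17.0 and 18.1 CPM (log2 fold change -0.47 with SE 0.09, adjusted p = 0.0113). Entpd7, P2ry1, P2ry10 and P2ry14 fell too, and the ATP release channel Panx1 rose from 4.20 and 4.67 to 7.73 and 8.18 CPM (log2 fold change 0.84), as did P2rx1 and P2ry2. Without either mutant 3 library or empty vector replicate 1 the falls numbered 1. Without mutant 1 replicate 2 they numbered 3, and the risers numbered 1 without empty vector replicate 1, either mutant 1 library or mutant 3 replicate 2 and 0 without mutant 3 replicate 1. Of 25 inhibitory and Fc receptors, 3 rose and 2 fell. The inhibitory IgG receptor Fcgr2b stood at 66.6 and 64.6 against 98.2 and 87.9 CPM (log2 fold change 0.50 with SE 0.07, adjusted p = 0.00343), and the activating receptor Fcgr3 stood at 160.1 and 143 against 123 and 90.7 CPM (log2 fold change -0.51 with SE 0.08, adjusted p = 0.00660). The 2 receptors moved in opposite directions without overlap between the constructs. Pirb and Cd300a, both inhibitory, rose by 0.52 and 0.36, and the mast cell receptor Milr1 (allergin-1), also inhibitory, fell from 61.0 and 54.1 to 33.8 and 31.6 CPM. The risers numbered 1 without empty vector replicate 1 or mutant 3 replicate 2. Fcgr2b passed with each library left out, Fcgr3 did not without mutant 3 replicate 2, and Milr1 did not without any 1 of the 4 libraries compared.

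Adhesion and actin genes moved both ways, 5 of 41 higher and 5 lower, against 5.35% and 2.82% of all genes tested. Beside Actn1 and Bcar1, the integrin chains Itgb2 and Itgb1 rose by 0.50 and 0.23 and the focal adhesion kinase Ptk2 by 1.01. The integrin chains Itga4, Itgal and Itgae and the sialomucin Podxl fell by 0.64, 0.81, 1.07 and 1.04 on the log2 scale. Of 34 lysosome genes, 5 rose and 2 fell. The sorting receptor Sort1 stood at 8.13 and 4.16 against 29.7 and 27.1 CPM (log2 fold change 2.27 with SE 0.23, adjusted p = 0.00245). Tfeb, a transcription factor for lysosomal genes, stood at 2.20 and 1.05 against 6.92 and 2.93 CPM (log2 fold change 1.57 with SE 0.23, adjusted p = 0.00425). In both genes the mutant 3 libraries lay above the empty vector libraries, and Tfeb was lower in batch 2 with either construct. The cathepsin Ctsb and the saposin precursor Psap rose by 0.34 and 0.29, and Ctsc fell by 0.43 on the log2 scale. Without mutant 3 replicate 1 and 2 the adhesion risers numbered 2 and 3 and the falls 2 and 1, and the lysosome risers numbered 3 and 5. Without empty vector replicate 1 the adhesion falls numbered 2 and the lysosome risers 3, and the adhesion falls numbered 3 without empty vector replicate 2, mutant 1 replicate 2 or mutant 2 replicate 2. The lysosome falls numbered 1 without empty vector replicate 1 or mutant 3 replicate 1 and 0 without mutant 3 replicate 2, and Itgb2 did not pass without mutant 3 replicate 1. Sort1 and Tfeb passed in each of these fits.

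The cells of both constructs carried mast cell transcripts. The 30 genes of the mast cell and basophil list summed to 75458 and 77552 TPM with the empty vector and to 69138 and 70150 TPM with mutant 3, with 2 genes under 1 TPM in all 4 libraries. Of 29 tested, 2 rose (6.90%) and 3 fell (10.3%), with a median of 0.03. The shares of all genes tested were 5.35% and 2.82%. The histamine-making enzyme Hdc stood at 12.1 and 17.1 CPM with the empty vector and 28.0 and 54.3 CPM with mutant 3 (log2 fold change 1.45 with SE 0.18, adjusted p = 0.00503). The mast cell protease Mcpt4 stood at 13.6 and 50.7 against 5.06 and 19.7 CPM (log2 fold change -1.39 with SE 0.20, adjusted p = 0.00943), with the batch 2 libraries higher in both constructs. Mcpt8, Il6 and Il13 were the other called members. The falls numbered 0 and 1 without mutant 3 replicate 1 and 2 and 5 without either full-length library, and the risers numbered 0 without empty vector replicate 1 and 1 without mutant 3 replicate 1 or either mutant 1 library. Hdc did not pass without empty vector replicate 1, Mcpt4 not without that library or either mutant 3 library, and with the constructs of the labels Mcpt4 had a log2 fold change of 0.63. In bulk RNA, fewer cells of a type and less RNA per cell cannot be told apart.

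Stem and progenitor genes changed in single members, 3 of 22 higher and 2 lower, against 5.35% and 2.82% of all genes tested. The surface marker Cd34 stood at 522 and 633 CPM with the empty vector and 349 and 477 CPM with mutant 3 (log2 fold change -0.50 with SE 0.12, adjusted p = 0.0397). The transcriptional repressor Gfi1 stood at 24.2 and 26.9 against 7.44 and 6.30 CPM (log2 fold change -1.89, SE 0.39, adjusted p = 0.0407). The growth factor Angpt1 stood at 212 and 256 against 286 and 337 CPM (log2 fold change 0.41 with SE 0.08, adjusted p = 0.0160), Runx1 rose by 0.25 and Procr rose from under 1 CPM to 2.80 and 1.34 CPM. Both mutant 3 libraries of Cd34, Gfi1 and Angpt1 were beyond both empty vector libraries in the direction of the call. Without either empty vector library, mutant 1 replicate 1 or either mutant 3 library no member fell, and 1 rose without mutant 3 replicate 2. Angpt1 did not pass without empty vector replicate 1 or either mutant 3 library, and Procr passed in all these fits.

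Markers of other lineages differed in level. In the neutrophil list 20 of 23 genes were under 1 TPM in all 4 libraries and 6 were at 0 in all 4, and its sum was 111 and 428 TPM with the empty vector and 26.9 and 301 TPM with mutant 3, lower with mutant 3 in each batch and higher in batch 2. Of the 8 neutrophil genes tested, none passed, and the part of this list in the other results was not tested. The lymphoid list summed to between 1.81 and 5.77 TPM in the 4 libraries (20 of 22 genes under 1 TPM, 5 at 0) and the eosinophil list to between 2.68 and 5.26 TPM (8 of 10 under 1 TPM, 4 at 0). Of 8 tested lymphoid genes Il7r rose, to 3.42 CPM in mutant 3 replicate 1 but 0.371 CPM in replicate 2, and of 8 stromal and endothelial genes Eng rose. In the monocyte, macrophage and dendritic list (132 to 173 TPM in the 4 libraries) H2-DMa and Cd14 rose and Ccr2 and Adgre1 fell, of 20 tested. The erythroid and megakaryocyte list summed to 2586 and 2133 TPM with the empty vector and 2591 and 2089 TPM with mutant 3 (7 of 25 genes under 1 TPM, 2 at 0), and in it Epor rose and the clotting factor Vwf fell from 208 and 206 to 158 and 122 CPM (log2 fold change -0.58 with SE 0.09, adjusted p = 0.00743), of 19 tested. Il7r did not pass without empty vector replicate 1, either mutant 1 library or mutant 3 replicate 1, H2-DMa not without empty vector replicate 2 or either mutant 3 library, Cd14 not without any 1 of the 4 libraries compared, Adgre1 not without either mutant 3 library, and Vwf not without mutant 3 replicate 2. Of 26 interferon response and 25 cholesterol synthesis genes none passed. The shares of all genes tested, beside which these lists stand, were 5.35% higher and 2.82% lower.

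Mutant 3 was next compared with full-length ASXL2, to ask which genes separate the constructs. Of 17810 genes, 49 were higher with mutant 3 (0.275% of those tested) and 48 were lower (0.27%). The integrin beta chain Itgb2 (mm10 chromosome 10, 77530252 to 77565708), shared by leukocyte integrins, stood at 26.5 and 22.9 CPM with mutant 3 and 57.5 and 53.2 CPM with full-length ASXL2 (log2 fold change -1.17 with SE 0.08, adjusted p = 0.00255). Rab11fip5, an effector of recycling endosomes, stood at 4.97 and 6.61 against 17.1 and 23.1 CPM (log2 fold change -1.80 with SE 0.16, adjusted p = 0.00809). Both genes rose with mutant 3 against the empty vector, and both full-length libraries lay above those of mutant 3. Bmp1 stood at 8.28 and 6.70 CPM with mutant 3 and 2.01 and 1.13 CPM with full-length ASXL2 (log2 fold change 2.29 with SE 0.21, adjusted p = 0.00809), and Trp53i11 at 4.97 and 7.41 against 1.75 and 2.89 CPM (log2 fold change 1.43 with SE 0.14, adjusted p = 0.00982). Galnt12 stood at 13.3 and 10.1 against 3.68 and 2.76 CPM (log2 fold change 1.85 with SE 0.19, adjusted p = 0.0120), where the full-length libraries lay near the empty vector's 2.81 and 2.45 CPM. The lipid transfer gene Pitpnm1 stood at 41.4 and 40.1 against 68.9 and 63.6 CPM (log2 fold change -0.70 with SE 0.08, adjusted p = 0.0121). In each of these 6 genes the mutant 3 and full-length libraries did not overlap. They were picked for the smallest p in this comparison and 1 sign in both batches, so this only describes them.

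Further genes that separated the 2 constructs were Serpinb2, at 4.70 and 5.24 CPM with mutant 3 and 34.5 and 27.9 CPM with full-length ASXL2 (log2 fold change -2.65 with SE 0.28, adjusted p = 0.0265), and Ccr1, at 35.8 and 65.4 against 60.3 and 135 CPM (log2 fold change -0.91 with SE 0.11, adjusted p = 0.0230). Ccr1 was lower with mutant 3 within each batch, but its libraries overlapped across batches. Actn1, Ube2e2, Anks6, Zfp516, Ctsl, Rasgef1a, Adcy6 and Il6st were higher with mutant 3 than with full-length ASXL2, by log2 fold changes of 2.27, 2.17, 2.12, 1.72, 1.53, 1.44, 0.72 and 0.69. Of the 97 genes, 71 were also called against the empty vector, 67 with the same sign and 4 with the opposite sign, and 26 were not called there, among them the neuromedin gene Nmb (log2 fold change -0.66 against full-length, 0.02 against the empty vector). The comparisons share the mutant 3 libraries, so these shares are a description. Asxl2 itself did not pass (log2 fold change -0.31, SE 0.24, adjusted p = 0.746). The glycolysis and hypoxia list had a median of 0.38 here with no member past the threshold, and of the ribosome biogenesis list (median -0.04) Polr1a was lower. Without mutant 3 replicate 1, mutant 3 replicate 2 or full-length replicate 2, 1, 0 or 1 gene passed, without mutant 1 replicate 1 or 2 the count was 26 or 27, and without empty vector replicate 1 or 2 it was 187 or 167. DESeq2 called 435, and neither the fit without the replicate block nor the fit by the labels called any.

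**Figure D5:**
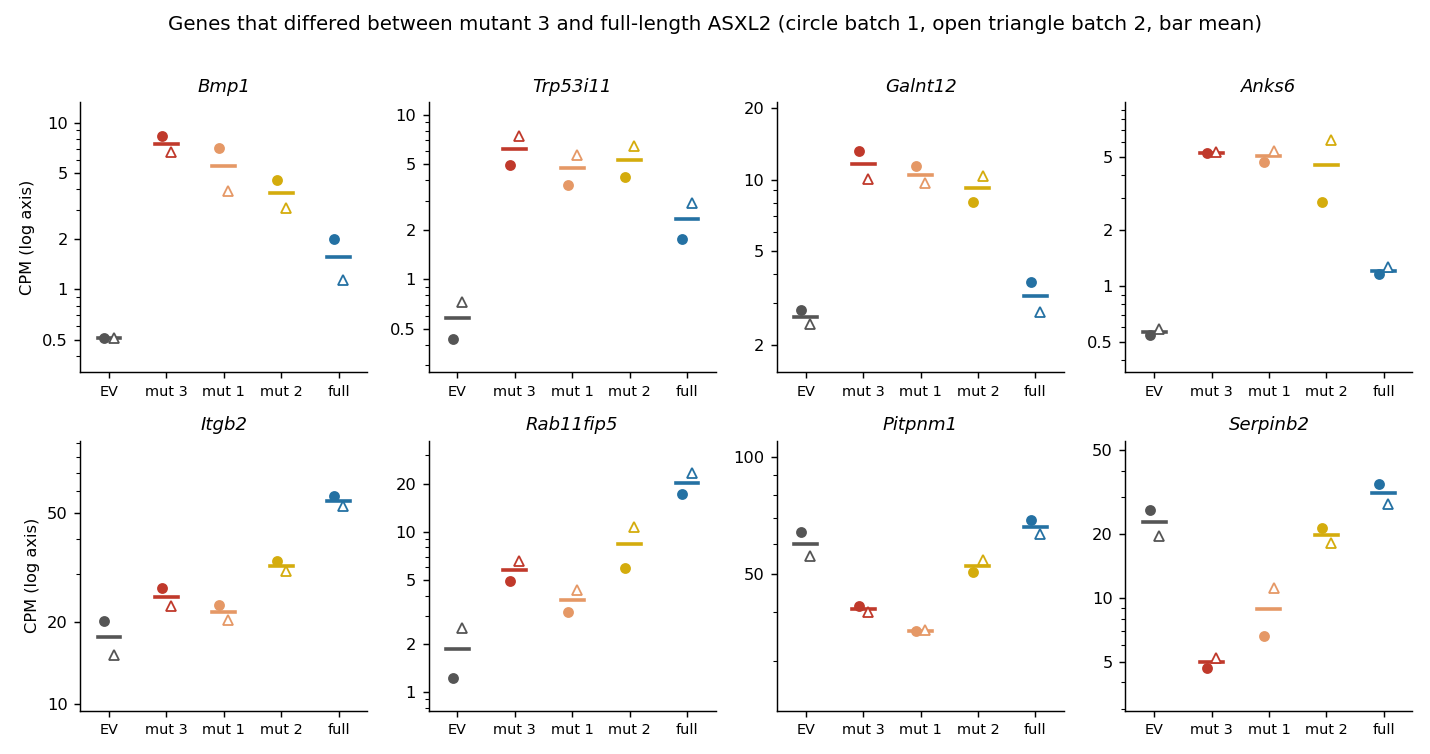
CPM (log axis) of 8 genes that differed between mutant 3 and full-length ASXL2, in each library of the 5 constructs, with filled circles for batch 1, open triangles for batch 2 and a bar at the mean. Bmp1, Trp53i11, Galnt12 and Anks6 are higher with mutant 3 than with full-length ASXL2, and Itgb2, Rab11fip5, Pitpnm1 and Serpinb2 are lower.

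Against the mean of mutants 1 and 2, no gene passed by edgeR's quasi-likelihood test (0% of 17810 tested), the smallest adjusted p was 1, and 581 genes had an unadjusted p under 0.05. The count was 1 without mutant 1 replicate 1 or mutant 3 replicate 1. DESeq2 called 12, Serpinb2, Ccr1, Sytl2, Muc13, Gm26880, Mab21l1, Otop1, Ccr2, Mcpt4, Adcy6, Vwf and Cep126. Sytl2, which acts in vesicle docking, stood at 27.4 and 56.9 CPM with mutant 3, 39.7 and 81.9 CPM with mutant 1 and 35.0 and 85.8 CPM with mutant 2 (log2 fold change -0.50, SE 0.08). Ccr1 stood at 35.8 and 65.4 CPM with mutant 3, 46.3 and 101 CPM with mutant 1 and 56.7 and 101 CPM with mutant 2 (-0.57, SE 0.10). Adcy6 stood at 28.1 and 28.1 CPM with mutant 3, 21.7 and 19.8 CPM with mutant 1 and 20.2 and 19.5 CPM with mutant 2 (0.47, SE 0.09). Within each batch mutant 3 had the lowest Sytl2 and Ccr1 and the highest Adcy6 of the 3 mutants. These genes were picked for a small p here and 1 sign in both batches, so this only describes them. Nbea, Mab21l1 and Nmb, the others of the 6 named genes with the smallest p, had log2 fold changes of -0.34, -0.41 and -0.31. A p that misses the threshold does not show that the mutants act alike, and the comparison rests on the construct numbers in the deposited names.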

How the data were processed

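PolyA RNA was measured in 10 libraries. For each library the authors deposited estimated counts and TPM values of 115088 transcripts, under the column names of kallisto per the file headers. The submitters' processing notes name kallisto, DESeq2 and mm10, without version or role, and for read trimming and the index nothing is given in the sources used here. Transcripts were summed per gene through GENCODE M21, which matched 114200 of them (99.2%) and 99.3 to 99.6% of the counts, and gave 47311 genes. Reads of near-identical genes may be split among them, and no strand setting is stated.

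The deposited estimated counts were rounded after summing. Genes with enough counts by edgeR's expression filter (10 counts) numbered 17810 and were tested in edgeR 4.0.16 (R 4.3.3) after TMM scaling, with robust quasi-likelihood estimates. A single fit of all 10 libraries took construct and batch from the deposited names as its terms and left 4 residual degrees of freedom, and p-values were Benjamini-Hochberg adjusted over all genes. CPM values are TMM-scaled. Each SE is the absolute log2 fold change divided by the square root of the F statistic of the quasi-likelihood test. It restates that test and is not a separate measure of precision. Deposited TPM values served for marker sums and, as log2(TPM + 1), for limma 3.58.1, and DESeq2 1.42.0 was an alternative. Python 3.11.15 was used with numpy 2.4.6, pandas 2.3.3 and, for figures, matplotlib 3.10.9. The test was also run on simulated counts for mutant 3 against the empty vector, with 17503 genes tested and 200 changed. It recovered 49.3% of genes changed 1.5-fold, 73.1% of those changed 2-fold and 89.4% of those changed 4-fold, and made 15 false calls. Each simulated gene took its spread from the trend over expression level, so genes that vary more than that trend are not covered.

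Pairing comes from the batch in the names: deviations of same-batch libraries from their construct means correlated at between 0.43 and 0.61 over the 10 pairs of constructs. The replicate block was part of the planned fit and was not chosen from these correlations.

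The comparison, the 26 gene lists and the rule for named genes were chosen with earlier results of these data known. From called genes with at least 5 CPM, 1 sign in both batches and no predicted symbol, the 14 largest rises and 10 largest falls were named. Up to 3 called members of each list, without the CPM, sign and symbol conditions, were added, as were the Asxl genes and Bap1. The 6 genes with the smallest p in each other comparison met those conditions but did not have to pass. Other called list members were named after their values were seen. Most called genes are given by count only, and some that the rule covers are not reported here.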

Additional observations from a re-analysis of the deposited data

How the results depend on the processing

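For mutant 3 against the empty vector, the higher and lower genes numbered 48 and 5 with no replicate block, 120 and 12 with construct, batch and replicate block from the labels, 261 and 124 by limma on log2(TPM + 1), and 692 and 255 in the fit of only the libraries compared. Of the 132 calls by the labels, 120 (90.9%) were among the calls by name, and they made up 8.2% of the latter. Both comparisons use mutant 3 replicate 2 and the same empty vector libraries, so this overlap only describes the calls. Leaving out 1 library at a time gave between 368 and 988 higher and between 95 and 951 lower genes. DESeq2 (1087 and 709), its size factors in edgeR (925 and 534), no filter (971 and 529) and a stricter filter of 1 CPM in 4 libraries (928 and 526) stayed within 1.5 times. Against full-length ASXL2 the 97 calls became 435 by DESeq2, 196 with no filter, 0 with no replicate block, 0 by the labels, 3 by limma on TPM, and between 0 and 187 with 1 library left out. Against mutants 1 and 2 DESeq2 called 12 and the fit with no filter 2, and leaving out 1 library gave between 0 and 1. With no replicate block the ASXL, BAP1 and Polycomb list had 1 higher member, which was Asxl2, the gene of the construct. The nuclear receptor list had 1 higher member, lysosome 1, Ras, Rap and PI3-kinase 2, Adcy6 among them, and adhesion 2. In the other lists no member passed.

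Of the 79 named genes called against the empty vector, 40 passed with each library left out, and 9 of these (Zfp516, Bcar1, Trp53i11, Anks6, Adcy6, Asxl2, Rxra, Pik3cb and Galnt12) also under every other alternative. With the labels Mcpt4 (0.63) and Sytl2 (0.23) turned positive in log2 fold change. Bap1, which did not pass, was at -0.0865 by limma and between -0.0465 (without empty vector replicate 2) and 0.0572 with 1 library left out, and at -0.0051 without mutant 3 replicate 1. The causes were not tested. With 1 mutant 3 or empty vector library left out, the lone library is assumed to vary like the others. At the low end depth limits the folds, as for Smo, Procr and Spry1, which stood under 1 CPM with the empty vector.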
